A study of Homo sapiens with 16 samples.

Results

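The heat shock proteins and chaperonins are 96 of the 27043 gene rows in counts of RNA from single SK-N-AS cells. A row was taken when any of its names was an HSPA, HSPB, HSPD, HSPE, HSPH or HSP90 gene, a DNAJA, DNAJB or DNAJC gene, a CCT gene, TCP1 or BAG3. HSPA5, HSP90B1, DNAJB9 and DNAJC3, which act in the endoplasmic reticulum, and the proteoglycan gene HSPG2 were left out by the rule. Of the 96 rows, 20 had 0 counts, 41 had at least 50 counts and 34 stood at 50 CPM (counts scaled to a common library total) or more.

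SK-N-AS is an established human neuroblastoma line. Cells from untreated cultures in RPMI1640 medium with fetal calf serum were detached with versene and sorted singly into plates, and RNA was read with MARS-seq, a method that counts the 3′ ends of polyadenylated transcripts. The labels list 16 samples of this 1 group, but the table names its columns by barcode only, so its 603 cells were treated as 1 sample with no replicate. No p-value can be given, and every interval below is a 95% interval that covers counting error only.

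The cells held 1537576 counts, with totals from 1000 to 42404 and a median of 2106 per cell. The columns use 364 distinct barcodes, and 239 of these occur in a first run of 316 columns and again in a second run of 287, called barcode sets 1 and 2 here. They are not groups of the study, and values within each are given as a check. As a check of the line's label, a list of 10 mesenchymal markers summed to 6775 CPM, of which VIM supplied 5649 CPM and the other 9 markers 1126 CPM. A list of 12 adrenergic markers summed to 1498 CPM, so the order of these lists rests on VIM. A list of 14 markers of other cell types summed to 21.5 CPM with 10 of the 14 at 0.

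Chaperones bind unfolded or partly folded proteins and let them reach their native form. HSP70 proteins work with J-domain proteins (the DNAJ families), HSP90 takes over later folding steps of kinases and receptors, and the ring-shaped chaperonin TRiC folds actin and tubulin. Some of these genes are active in every growing cell, while others are switched on by the heat shock factor HSF1 when proteins unfold.

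The 96 rows held 21853 counts, which is 1.42% of all counts or 14213 CPM (14025 to 14402). Barcode set 1 summed to 14162 CPM and set 2 to 14266 CPM. Over consecutive blocks of 100 columns the share ran between 1.40% and 1.50%. The median of log2(CPM + 1) was 4.13 over the 96 rows, against 0.72 over all 27043 rows and 4.00 over the 13641 rows with a count. Over the 76 members with a count it was 5.24. Since each transcript is counted at its end, counts were not divided by gene length, and CPM of different genes are compared on that footing. How fully the 3′ end of each gene was captured and counted was not tested, and levels of different genes carry that limit.

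The cytosolic HSP90 genes formed the most abundant pair. HSP90AB1, the constitutive form, led all 96 rows at 2456 CPM (2379 to 2536) and was seen in 98.7% of cells (97.4 to 99.4). HSP90AA1, the form that heat shock raises, was seen in 75.3% of cells at 816 CPM (771 to 862). Together they made 3272 CPM.

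The HSP70 class summed to 2783 CPM over 14 rows, and HSPA8 alone supplied 2200.2 CPM (2127 to 2276) of it. HSPA8 is the constitutive cytosolic HSP70, and 93.9% of cells had a count. HSPA4, a nucleotide exchange factor of the HSP110 type, followed with 615 counts (369 to 433 CPM). HSPA9, the HSP70 of mitochondria, reached 75.4 CPM. Each of the other rows of the class was below 50 CPM, and HSPA1A, HSPA6, HSPA4L and HSPA12B were at 0.

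The TRiC class, with the 8 subunit genes and 2 related rows, summed to 3710 CPM, which made it the most abundant class at 26.1% of the counts of all 96 rows. Subunits of this complex are present in equal number in the ring, yet their transcript counts spread widely. CCT3 had 828 CPM (783 to 875), CCT5 had 784 CPM (741 to 830), CCT6A had 731 CPM, CCT7 had 610 CPM and CCT2 had 544 CPM. CCT8 stood at 96.9 CPM (82.0 to 114), CCT4 at 78.0 CPM (64.7 to 93.3) and TCP1, the first subunit named, at 36.4 CPM (27.5 to 47.3). The intervals of the 5 high and the 3 low subunits did not overlap, but these cover counting error only. In the proteasome core list levels also spread widely, from 0 for PSMA6 to 1406 CPM for PSMB4. The part of capture at the 3′ end in such spreads was not tested.

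The small heat shock class was nearly all HSPB1, an actin-protecting holdase, at 1141 CPM (1088 to 1195) of 1232 CPM. HSPB6 shares its row with another transcript at 85.2 CPM, and HSPB2, HSPB8 and HSPB9 were at 0. In the mitochondrial chaperonin, HSPD1 (HSP60) had 370.1 CPM (340.3 to 402) and its lid HSPE1 (HSP10) had 295 CPM (269 to 324). HSPD1 exceeded HSPE1 by a log2 ratio of 0.33 (0.15 to 0.51), 0.39 in barcode set 1 and 0.25 in barcode set 2.

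The J-domain genes were many and low. The DNAJC class had 27 rows that summed to 1362 CPM, against 426 CPM in 11 DNAJB rows and 221 CPM in 4 DNAJA rows. DNAJC8, which works with the splicing machinery, had 336 CPM, and DNAJC9, a histone-binding protein, had 304 CPM in a row it shares with MRPS16, so its own level cannot be told apart. DNAJC15 and DNAJC19, both of the mitochondrial inner membrane, had 144 and 97.6 CPM. DNAJB11 and DNAJC1, which reside in the endoplasmic reticulum, had 121 and 107 CPM. DNAJB6, a suppressor of aggregation, had 114 CPM. DNAJA1, the main cytosolic partner of HSPA8, had 95.6 CPM, and DNAJA3, its mitochondrial relative, had 72.8 CPM. DNAJC21, which acts in ribosome assembly, had 70.2 CPM, DNAJB12, a membrane protein of the endoplasmic reticulum, had 69.6 CPM, and DNAJC5, of secretory vesicles, had 57.9 CPM. DNAJB7, DNAJB8, DNAJB13, DNAJC5B and DNAJC5G were at 0.

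Of the remaining rows, HSPBP1, an exchange factor for HSP70, had 129 CPM, HSPB11, a ciliary transport protein, had 96.9 CPM, and BAG3, which links HSP70 to autophagy, had 65.7 CPM. The rows DNAJC25-GNG10 at 82.0 CPM and HSPE1-MOB4 at 66.3 CPM are read-through names. In the last 300 bases of the reference transcripts, every 50-base window of both also lies in GNG10 or MOB4, so these counts cannot be assigned to the chaperone. The same comparison found shared windows for DNAJC9 (41.8%), HSPB1 (36.3%, with the pseudogene HSPB1P1) and HSPE1 (17.5%), and none for 37 of the 46 genes looked up. CCT8L2, HSPA7, DNAJB3, DNAJA1P5, DNAJB8-AS1, HSP90AA6P, HSP90AB4P and HSP90B3P were also at 0. A row at 0 allows up to 1.95 CPM, taking 3 counts as the limit.

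**Figure D1:**
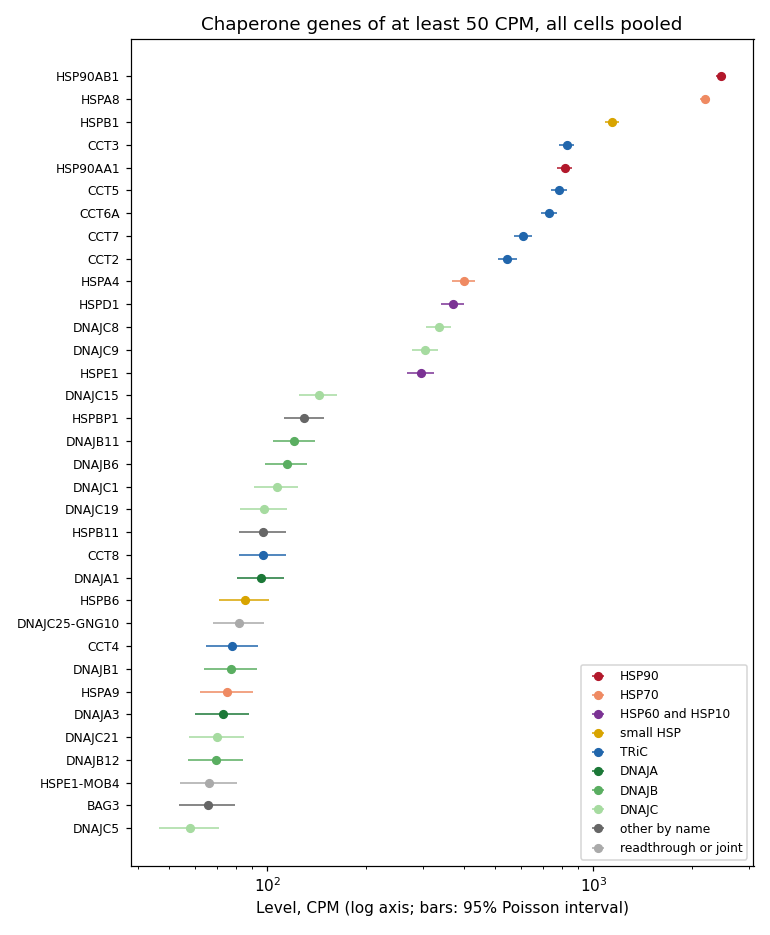
Level in CPM on a log axis of the 34 rows at 50 CPM or more, over all 603 cells, coloured by class, with 95% Poisson intervals as bars. HSP90AB1 at 2456 CPM and HSPA8 at 2200.2 CPM stand apart at the top, and the TRiC subunits fall into a high run from 544 to 828 CPM and CCT8 and CCT4 below 100 CPM.

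A core of sharply inducible members was scarce beside the constitutive ones, while HSPB1 (1141 CPM) and HSP90AA1 (816 CPM), also inducible, were abundant. HSPA1A, HSPA1B, HSPA6, HSPA7, DNAJB1 and BAG3, taken as the stress core because stress raises them most sharply, held 270 counts or 176 CPM (155 to 198). The list of 20 constitutive members held 9891 CPM. The log2 ratio of core over constitutive was -5.82 (-5.99 to -5.64), or 56.3-fold more constitutive transcript. Barcode set 1 gave -5.84 and set 2 gave -5.79. This ratio compares sums over 6 and 20 rows, so the sizes of the lists enter it. The median row had 16.3 CPM in the core and 213 CPM in the constitutive list. DNAJB1, the partner of stress HSP70, gave 119 counts (77.4 CPM) and BAG3 gave 101. HSPA1B gave 50 counts (32.5 CPM, 24.1 to 42.9), while HSPA1A, HSPA6 and HSPA7 gave 0. HSPA1A and HSPA1B together stood against HSPA8 at a log2 ratio of -6.08 (-6.51 to -5.68). None of the 50-base windows at the 3′ ends of HSPA1A and HSPA1B was shared with another gene, though their coding parts are nearly alike, so how reads were divided between them is uncertain.

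In other pairs the inducible form was also the lower. HSP90AA1 over HSP90AB1 gave a log2 ratio of -1.59 (-1.68 to -1.50), with HSP90AB1 3.01-fold higher. HSPH1, the inducible relative of HSPA4, had 21 counts (13.7 CPM), a log2 ratio over HSPA4 of -4.87 (-5.57 to -4.25). Among the J-domain genes the order was mixed. The inducible DNAJB1 over the constitutive DNAJB6 gave a log2 ratio of -0.56 (-0.91 to -0.22), with -0.19 (-0.73 to 0.35) in barcode set 1. In the DNAJA class, the inducible DNAJA1 at 95.6 CPM was above the constitutive DNAJA3 at 72.8 CPM and DNAJA2 at 44.2 CPM. A wider inducible list of 14 genes, which includes the abundant HSPB1 and HSP90AA1, held 2909 CPM, a log2 ratio over the constitutive list of -1.77. Among the heat shock factors, HSF1 had 166 CPM, HSF2 had 5 counts and HSF4 had 2 counts, and HSBP1, a binder of HSF1, had 365 CPM.

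The promoters of the genes on either side of this contrast are shown because heat shock factors bind arrays of the letters GAA and TTC. The sequences are the 250 bases before the start of transcription in RefSeq, build GRCh38.p14, read 5′ to 3′ on the gene's strand. Capitals mark 3 alternating units in a row, GAANNTTCNNGAA or TTCNNGAANNTTC, each searched on the printed strand, which covers both strands because each motif is the reverse complement of the other.
HSPA8 (chr11:123062137-123062386, - strand): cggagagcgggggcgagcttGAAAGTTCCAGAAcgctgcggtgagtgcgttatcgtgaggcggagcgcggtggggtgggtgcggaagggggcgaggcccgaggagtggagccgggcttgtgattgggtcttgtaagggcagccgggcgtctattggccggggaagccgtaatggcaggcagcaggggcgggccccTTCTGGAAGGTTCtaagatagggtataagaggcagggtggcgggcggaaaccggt
HSP90AB1 (chr6:44247693-44247942, + strand): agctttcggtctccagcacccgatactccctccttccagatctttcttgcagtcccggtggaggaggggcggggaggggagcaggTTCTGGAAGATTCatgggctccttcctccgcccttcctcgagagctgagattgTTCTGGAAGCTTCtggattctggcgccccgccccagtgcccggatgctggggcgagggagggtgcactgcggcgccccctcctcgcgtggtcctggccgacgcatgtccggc
HSP90AA1 (chr14:102087045-102087294, - strand): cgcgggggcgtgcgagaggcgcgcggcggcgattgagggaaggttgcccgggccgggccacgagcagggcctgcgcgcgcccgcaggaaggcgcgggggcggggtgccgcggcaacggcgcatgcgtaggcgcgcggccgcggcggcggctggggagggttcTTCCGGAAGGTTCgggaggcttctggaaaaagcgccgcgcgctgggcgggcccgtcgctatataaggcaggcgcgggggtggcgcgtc
HSPA6 (chr1:161524290-161524539, + strand): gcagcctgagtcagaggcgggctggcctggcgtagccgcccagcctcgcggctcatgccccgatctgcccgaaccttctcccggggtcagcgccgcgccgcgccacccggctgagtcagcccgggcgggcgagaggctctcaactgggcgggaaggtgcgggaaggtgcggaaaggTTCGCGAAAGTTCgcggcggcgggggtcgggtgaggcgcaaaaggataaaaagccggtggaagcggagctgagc
In HSPA1A and HSPA1B, which held no run of 3 units, the capitals mark 2 units, GAANNTTC or TTCNNGAA.
HSPA1A (chr6:31815293-31815542, + strand): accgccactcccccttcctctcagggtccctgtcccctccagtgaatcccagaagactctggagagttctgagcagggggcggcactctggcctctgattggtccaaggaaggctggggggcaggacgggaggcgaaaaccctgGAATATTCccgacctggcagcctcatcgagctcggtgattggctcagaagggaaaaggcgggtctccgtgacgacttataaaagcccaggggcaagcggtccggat
HSPA1B (chr6:31827488-31827737, + strand): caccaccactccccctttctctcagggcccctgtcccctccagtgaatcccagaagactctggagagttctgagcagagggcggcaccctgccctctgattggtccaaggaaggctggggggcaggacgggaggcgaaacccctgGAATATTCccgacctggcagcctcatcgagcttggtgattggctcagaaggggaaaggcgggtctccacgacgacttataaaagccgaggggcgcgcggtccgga
The windows used for the counts run on to 50 bases past the start, 300 bases in all. Runs of 3 units occurred in 7 of 97 windows of member genes (7.22%) and in 172 of all 35116 windows (0.49%). They lay in the windows of HSPA8 (from 230 and from 55 bases before the start), of 1 of the 3 starts of HSP90AB1 (from 165 and 112 bases), of 1 of the 2 starts of HSP90AA1 (from 88 bases), of HSPA6 (from 74 bases), and of DNAJB6, DNAJA1 and 1 of the 2 starts of HSPD1. None of the 9 windows of TRiC subunit genes held one. Of the 7 windows of stress core genes, 1 held one. Runs of 2 units occurred in 27.8% of member windows and 13.5% of all. They occurred in 5 of the 7 stress core windows (71.4%) and 3 of the 9 TRiC windows (33.3%). Only exact letters at this spacing were counted, so a window without a run of 3 units may still hold a site with changed letters. The abundant HSPA8, HSP90AB1 and HSP90AA1 and the undetected HSPA6 thus share these letters, which describe the sequence and not the use of a site.

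HSPD1 and HSPE1 are read away from each other from starts 105 bases apart on chromosome 2. The 104 bases between the starts are printed because a single stretch lies before both genes of the mitochondrial chaperonin, whose transcripts stood within a log2 ratio of 0.33.
HSPD1 to HSPE1 (chr2:197500275-197500378, + strand): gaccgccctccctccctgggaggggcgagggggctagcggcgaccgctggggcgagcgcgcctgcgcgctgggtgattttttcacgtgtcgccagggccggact
No run of 3 units lay in it.

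For values per cell, 1100 counts were drawn at random from each cell so that depth was equal, which kept 560 cells and left out 43. A cell then held between 5 and 33 counts of the 96 rows, with a median of 15. The variance over the mean was 1.63. Cells without a count were rare for HSP90AB1 (7.86% of cells) and HSPA8 (16.4%), and made up 44.6% for HSP90AA1 and 42.3% for CCT3. Among 2082 genes with a mean of at least 0.1 counts per cell, DNAJB1 and HSPA8 had more variance than 95.9% and 95.4% of genes relative to genes of like mean, while HSP90AB1 was above 9.27% and DNAJC9 above 2.69%. HSPA8 and HSP90AB1 thus have like levels and unlike spread across cells. DNAJB1 stood at the limit, with a mean of 0.1, counts in 45 cells and at most 3 in a cell. Its rank therefore rests on few counts.

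**Figure D2:**
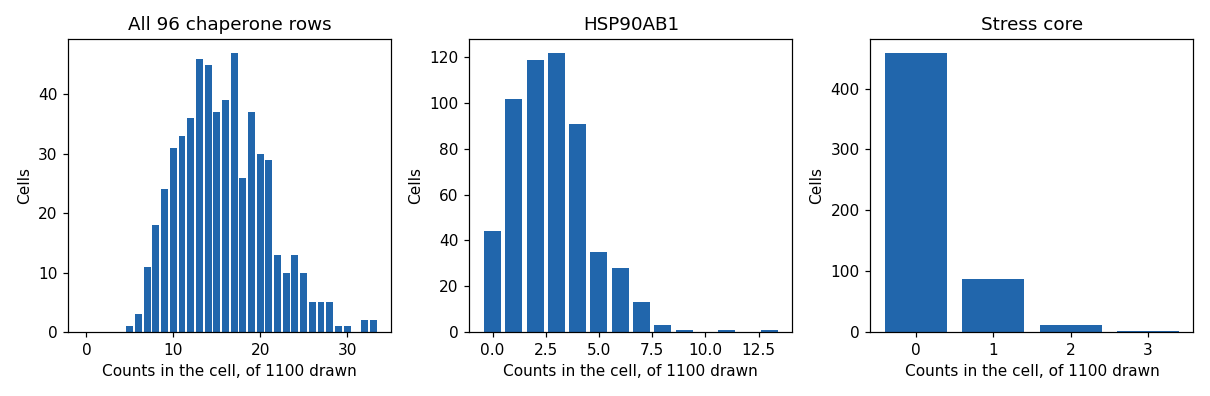
Number of cells (y axis) by counts in the cell out of 1100 drawn (x axis) for all 96 rows, HSP90AB1 and the stress core. The 560 cells hold 5 to 33 counts of the 96 rows, and 459 of them hold 0 counts of the stress core.

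A stress core transcript was seen in 101 of the 560 cells at equal depth (18.0%, exact binomial interval 14.9 to 21.5), and in 186 of 603 cells with all counts. At equal depth 14 cells had 2 or more, the highest had 3, and the 10 cells with the most core counts held 18.8% of the 117. With all counts the highest cell had 6, and the 10 highest held 13.7% of the 270. HSPA1B and DNAJB1 were seen together in 1 cell, HSPA1B and BAG3 in 2 and DNAJB1 and BAG3 in 0, at 14, 45 and 45 cells with HSPA1B, DNAJB1 and BAG3. The product of the shares of cells, times the cells, was 1.125, 1.125 and 3.62 for these pairs. Such small numbers cannot tell joint from separate expression. No cell with a strong joint core signal was found at this depth.

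Pairs of members barely varied together. Over the 253 pairs of the 23 members with a mean of at least 0.1, the median Spearman rho across the 560 cells was 0.0058, against -0.0010 over all pairs of 2082 genes. The highest pair was CCT2 with CCT6A at 0.18 (0.18 and 0.15 in barcode sets 1 and 2). HSP90AA1 with HSPA8 followed at 0.15, but was 0.0035 in set 1 and 0.30 in set 2. The 15 pairs of TRiC subunits had a median of 0.0091. With means of 0.1 to 2.79 counts per cell and gene, such values are descriptions of sparse counts that share a cell's draw, and weak ones are no finding.

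Several of these genes were higher in cells with more transcripts of mitotic genes. Cells were ordered by their count at equal depth over 57 rows of genes of the G2 and M phases. The 186 highest were set against the 186 lowest with all counts. Of the list's 9210 CPM, HN1 supplied 1485, HMGB2 1454 and TUBB4B 1052 CPM. These were seen in 89.1%, 77.4% and 74.1% of cells, so the score leans in part on broadly seen genes. The mitosis-high cells had scores of 11 or more and a median total of 2532 counts, and the mitosis-low cells scores of 5 or less and a median total of 2184. HSPA8 had 2681 CPM in mitosis-high and 1727 CPM in mitosis-low cells, a log2 ratio of 0.63 (0.51 to 0.76). HSP90AA1 had 996 CPM in mitosis-high and 588 CPM in mitosis-low cells, a log2 ratio of 0.76 (0.55 to 0.98). HSPD1 had 434 CPM in mitosis-high and 300.2 CPM in mitosis-low cells, a log2 ratio of 0.53 (0.22 to 0.85). The partners of these genes differed less: HSP90AB1 had 0.19 (0.07 to 0.31), or 0.04 with cells split at the median, and HSPE1 had 0.07 (-0.28 to 0.42).

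The middle cells lay between in the steps for HSPA8, at 1727, 2137 and 2681 CPM in the low, middle and high cells, and for HSP90AA1, at 588, 849 and 996 CPM. HSP90AB1 had 2186, 2635 and 2492 CPM, so the middle cells were highest there. HSPB1 went the other way, at 1235, 1183 and 1023 CPM, a log2 ratio of -0.27 (-0.44 to -0.10) for mitosis-high over mitosis-low. Among cells with at most 1 replication count this ratio was 0.144, with an interval that holds 0 (-0.19 to 0.48).

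**Figure D3:**
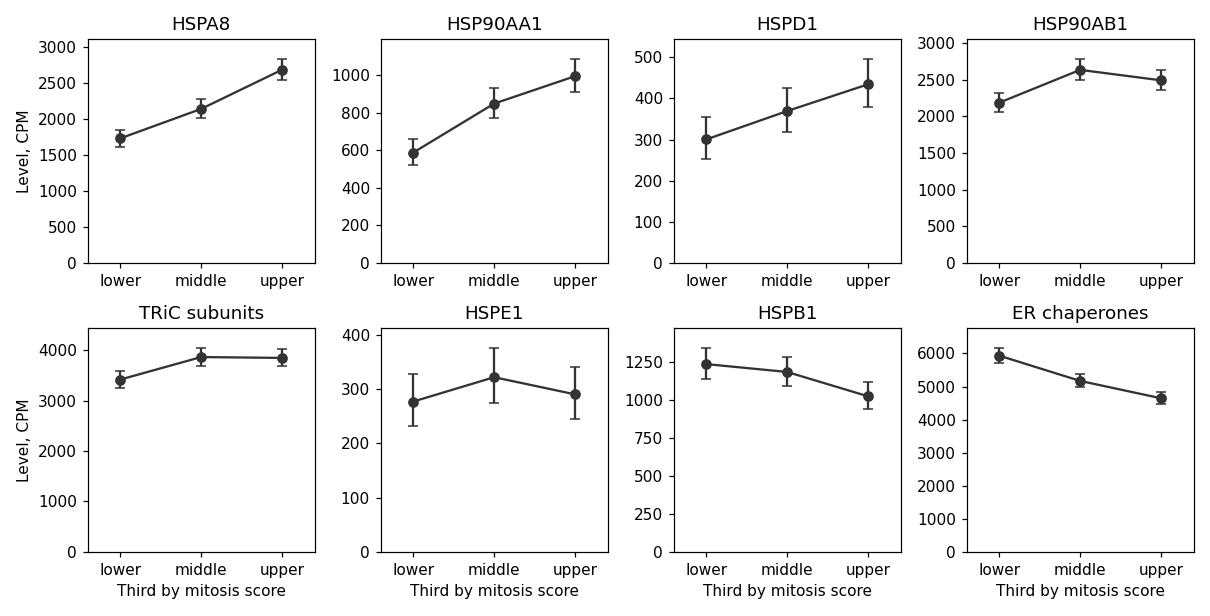
Level in CPM (y axis) in cells with low, middle and high mitosis score (186, 188 and 186 cells), with 95% Poisson intervals as bars. HSPA8, HSP90AA1 and HSPD1 step up, HSPB1 and the summed ER chaperones step down, and HSP90AB1 is highest in the middle. Among cells with at most 1 replication count the HSPB1 ratio of high over low was 0.144.

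By class, the sum of HSP70 had a log2 ratio of 0.55 (0.44 to 0.66), HSP90 had 0.33 (0.23 to 0.43), HSP60 and HSP10 had 0.33 (0.10 to 0.56), TRiC had 0.17 (0.07 to 0.27), DNAJC had 0.03 (-0.13 to 0.19) and the small class had -0.29 (-0.46 to -0.13). HSPA8 supplied 1376 of the 1701 HSP70 counts in mitosis-high cells. Of the others in that class, HSPA4 had 0.14 (-0.15 to 0.43), HSPA9 had 0.004 (-0.71 to 0.72) and HSPA1B, with few counts, had 1.69. All 96 rows summed to 15132 CPM in mitosis-high and 12846 CPM in mitosis-low cells, a log2 ratio of 0.24 (0.19 to 0.28), with 0.22 in barcode set 1 and 0.25 in barcode set 2. Without the HSP90 and HSP70 classes the ratio was 0.09 (0.03 to 0.16).

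A gene was counted as past the fold at a log2 ratio of at least 0.5 in either direction, among genes with at least 50 counts. Of the 41 members, 10 were past it upward (24.4%), against 14.1% of all 4596 genes. Downward, 1 member was past it (2.44%), against 11.4% of all genes. The 41 include 2 read-through rows and 2 pseudogene rows. Among the 10 are HSPE1-MOB4, whose counts cannot be assigned to the chaperone, the pseudogene HSP90AA4P, and HSPB11, a ciliary transport protein. The 24.4% is thus not a share of chaperone genes alone. The median ratio was 0.16 over members and 0.0076 over all genes, and 27 of the 41 lay above 0, against 50.7% of all genes. Besides HSPA8, HSP90AA1 and HSPD1, the 10 included HSPA1B (28 counts in mitosis-high and 8 in mitosis-low cells), HSP90AA4P, a pseudogene of HSP90AA1 (28 in mitosis-high and 8 in mitosis-low cells), TCP1 (23 mitosis-high, 8 mitosis-low), HSPB11 (63 mitosis-high, 25 mitosis-low), DNAJB1 (50 mitosis-high, 29 mitosis-low), DNAJB12 (46 mitosis-high, 28 mitosis-low) and HSPE1-MOB4 (44 mitosis-high, 27 mitosis-low). Their log2 ratios were 1.69 for HSPA1B (0.52 to 3.03), 1.69 for HSP90AA4P, 1.41 for TCP1 (0.19 to 2.78), 1.22 for HSPB11 (0.53 to 1.95), 0.67 for DNAJB1 (-0.02 to 1.38), 0.60 for DNAJB12 and 0.59 for HSPE1-MOB4. The intervals of the last 3 reach 0. HSPA1B had 2.99 within barcode set 1 and 0.73 within barcode set 2. HSP90AA4P was at 0.32 with 1500 counts drawn per cell, and with cells split at the median HSPB11 was at 0.42, HSPA8 at 0.49 and HSPD1 at 0.37, all short of the fold. The member past the fold downward was DNAJC4, at -0.57 (-1.43 to 0.28).

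Some named members showed no difference beyond counting error. DNAJA1 had a log2 ratio of 0.32 (-0.30 to 0.94), HSPH1 had 8 counts in mitosis-high and 5 in mitosis-low cells, and HSPA1A was at 0 in both. Across the 560 cells the Spearman rho with the mitosis score was 0.24 for HSPA8 and 0.16 for HSP90AA1, while 90% of 2059 other genes lay between -0.09 and 0.10. HSPB1 had -0.07.

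**Figure D4:**
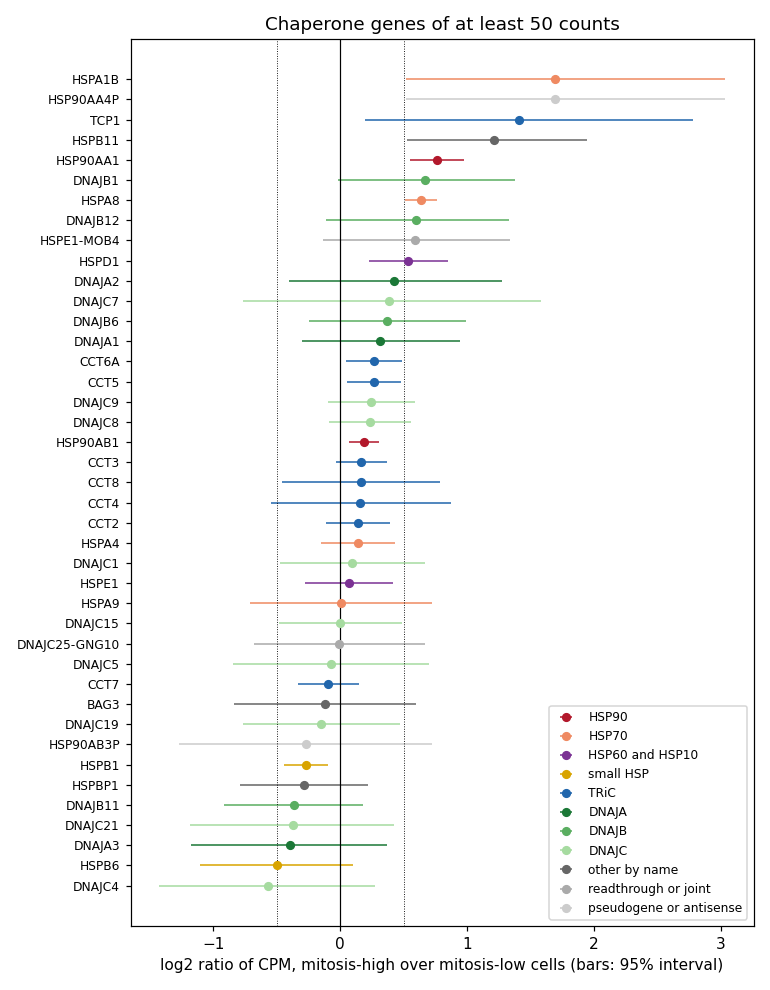
log2 ratio of CPM, mitosis-high over mitosis-low cells, for each of the 41 members with at least 50 counts, coloured by class, with 95% intervals as bars and dotted lines at 0.5 and -0.5. HSPA8 and HSP90AA1 have the narrow intervals above 0.5, and HSPA1B, HSP90AA4P and TCP1 the high values with wide intervals.

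Depth moved with the mitosis score, so the same ratios were taken between the 186 deepest and the 186 shallowest cells. The mitosis list itself had a log2 ratio of 0.36 there, HSP90AA1 had 0.36 (0.12 to 0.60), HSPD1 had 0.28 (-0.07 to 0.65), HSPA8 had 0.05 (-0.09 to 0.19) and HSP90AB1 had -0.18 (-0.31 to -0.05), and the 96 rows summed had -0.02. With groups balanced for depth, the mitosis comparison gave 0.24 for the sum, 0.62 for HSPA8 (0.49 to 0.75), 0.70 for HSP90AA1 (0.49 to 0.92) and 0.35 for HSPD1 (0.02 to 0.67).

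The chaperones of the endoplasmic reticulum, which the rule left out, moved the other way. Their list of 14, led by CALR, P4HB and PDIA4, had 4645 CPM in mitosis-high and 5935 CPM in mitosis-low cells, a log2 ratio of -0.35 (-0.43 to -0.27). None of its 13 members with at least 50 counts lay above 0 and 6 were at or below -0.5. Within barcode sets 1 and 2 the list had -0.21 and -0.50. It was also lower in cells with more replication transcripts, as given below. Over all 4596 genes, 50.7% lay above 0, 14.1% were past the fold upward and 11.4% downward. A mixed list of cochaperones (27 rows, led by PDCD5, AHSA1 and NUDC) had 0.13 (0.04 to 0.23), with 2 of 21 past the fold upward and 1 downward. Prefoldin, which hands actin and tubulin to TRiC and is led by PFDN2, PFDN5 and PFDN1, had 0.01 (-0.12 to 0.13), and the proteasome core, led by PSMB4, PSMA7 and PSMB7, had 0.04 (-0.04 to 0.11). The actin and tubulin genes that TRiC folds, led by TUBA1B, ACTG1 and ACTB, had 0.53 (0.48 to 0.58), with 4 of 9 past the fold upward and none downward. The adrenergic markers had -0.49 (-0.63 to -0.34).

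**Figure D5:**
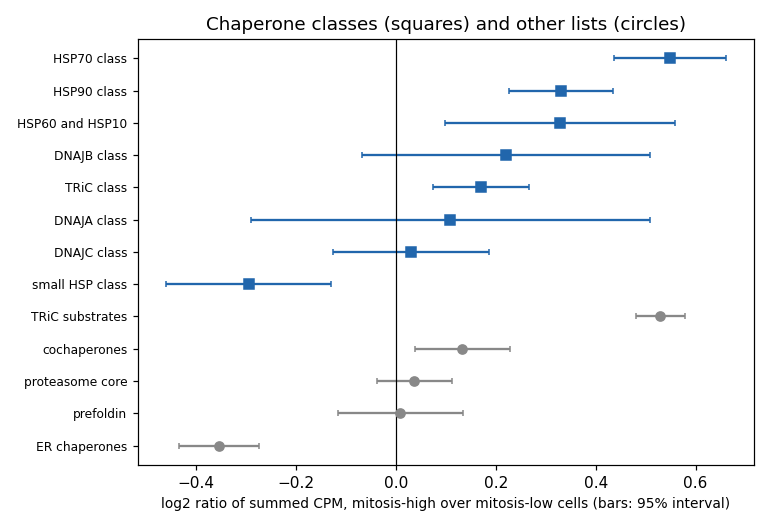
log2 ratio of summed CPM, mitosis-high over mitosis-low cells, with 95% intervals, for chaperone classes (squares) and other lists (circles). HSP70 at 0.55, mostly counts of HSPA8, and the TRiC substrates at 0.53 lie to the right. The ER chaperones at -0.35 and the small heat shock class at -0.29 lie to the left. HSPB1, nearly all of that class, was at 0.144 among cells with at most 1 replication count.

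Set by the counts of 45 rows of replication genes instead, the difference in the sum was smaller. At equal depth a cell held a mean of 3.55 counts of this list and 9.70 of the mitosis list. The 2 orderings thus differ in precision, and sizes of ratios from them cannot be ranked as strength of a tie. The replication-high cells (scores of 4 or more) had 14814 CPM of the 96 rows and the replication-low cells (2 or less) had 13531 CPM, a log2 ratio of 0.13 (0.08 to 0.18). Without the HSP90 and HSP70 classes the ratio was 0.13 (0.06 to 0.19), no lower than the 0.09 of the mitosis comparison. The median ratio was 0.17 over members and 0.0098 over all genes. Of the 41 members tested, 31 lay above 0, against 51.1% of all genes. Of the 41 members, 6 were past the fold upward (14.6%), against 11.5% of all genes, and 1 downward (2.44%), against 11.4%. They were DNAJA3 at 1.11 (0.34 to 1.92), DNAJC21 at 0.83 (0.12 to 1.57), TCP1 at 0.69 (-0.40 to 1.85), CCT8 at 0.68 (0.06 to 1.33), DNAJB6 at 0.66 (0.12 to 1.22) and the pseudogene HSP90AB3P at 0.66 (-0.35 to 1.72), and DNAJA2, a partner of HSPA8, at -0.78 (-1.75 to 0.14). The intervals of TCP1, HSP90AB3P and DNAJA2 reach 0. HSPA8 had 0.19 (0.06 to 0.31) and HSP90AA1 had 0.28 (0.08 to 0.48), lower than their ratios in the mitosis comparison. HSPD1 had 0.32 (0.01 to 0.63), HSPE1 had 0.17, HSPB1 had 0.03, HSP90AB1 had 0.05, DNAJA1 had 0.16 and DNAJB1 had -0.08. HSPH1 had 4 counts in replication-high and 11 in replication-low cells. The ER chaperones had -0.35 (-0.43 to -0.27) in replication-high over replication-low cells, close to their ratio in the mitosis comparison. Of their 13 members with at least 50 counts, 2 lay above 0 and 2 were at or below -0.5.

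The summed level of the other chaperones did not differ beyond counting error between cells with and without a stress core count. A few of the many single members had intervals that leave out 0. The positive cells were deeper, with a median total of 2478 counts against 2183 in the negative cells. The 101 positive cells had 14044 CPM of the other members and the 459 negative cells had 14042 CPM, a log2 ratio of 0.00 (-0.05 to 0.05). Of 38 members, 1 was past the fold upward (2.63%), against 8.91% of all genes, and 3 downward (7.89%), against 9.02%. DNAJC7, a cochaperone that bridges HSP70 and HSP90, was at 0.56 (-0.43 to 1.47), and DNAJA2 (-0.82), HSP90AA4P (-0.63) and DNAJC1 (-0.54) were below, all with intervals that reach 0. HSPA8 had 2451 CPM in positive and 2132 CPM in negative cells, a log2 ratio of 0.20 (0.08 to 0.32), and the HSP70 class without its core genes had 0.15 (0.04 to 0.26). The chaperonin subunit CCT7 had 503 CPM in positive and 641 CPM in negative cells, a log2 ratio of -0.35 (-0.61 to -0.09). DNAJC30, with 11 counts in positive and 17 in negative cells, had 1.41 (0.17 to 2.59). Both CCT7 and DNAJC30 were named after their values were seen, because their intervals leave out 0. HSP90AA1 had -0.06, HSP90AB1 had -0.05, HSPD1 had -0.00077, HSPE1 had -0.21, HSPB1 had -0.14, DNAJA1 had 0.15 and TCP1 had -0.16, each with an interval that holds 0. HSPH1, another inducible gene but with few counts, had 10 counts in positive and 11 in negative cells, at 34.2 CPM in positive and 9.16 CPM in negative cells (log2 ratio 1.90, 0.51 to 3.28, with 0.32 in barcode set 1 and 2.95 in barcode set 2). The mitosis list had 0.24 (0.18 to 0.30) in positive over negative cells and the replication list -0.21 (-0.32 to -0.10).

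Ordered instead by their count over the 96 rows, the 186 chaperone-rich cells (18 or more) and the 186 chaperone-poor cells (13 or less), with median totals of 2098 and 2297 counts, differed most among the lists run in the mitosis list, which had 10737 CPM in chaperone-rich and 7721 CPM in chaperone-poor cells, a log2 ratio of 0.48 (0.42 to 0.54). The ER chaperones had -0.40 (-0.48 to -0.33), with 0 of 13 above 0 and 5 at or below -0.5. Over all 4597 genes tested there the median ratio was -0.0071, and 10.2% were at or below -0.5. Among 2733 other genes with at least 100 counts, the 10 highest were CDCA3, PRPF4, AURKA, MALAT1, CENPV, PNO1, SPC25, CPSF3, PFDN6 and CENPF, between 0.95 and 1.37, of which CDCA3, AURKA, CENPF and SPC25 are mitotic genes. The 5 lowest were UNC5B, CDR2L, DKK2, MIA3 and HSPA5, between -1.16 and -1.01. These are extremes of many ratios and several changed with the draw of counts. MALAT1 had 0.05 in barcode set 1 and 2.30 in barcode set 2.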

How the data were processed

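The authors deposited raw counts for each gene row and cell. The sources used here do not say whether these are reads or molecules, how they were counted or with which annotation. Per the submitters' processing notes, alignment used Bowtie2 2.1.0 and hg19. A row named unknown (2 counts, 0.00013%) was left out. Cells were sorted singly, so no doublets were called. Counts were scaled to CPM with exact Poisson intervals. Shares have exact binomial and log2 ratios exact conditional binomial intervals, at 95%. Cells were thinned to 1100 counts to score them, and ratios used all counts. Members of at least 50 CPM were named, as were those past a log2 ratio of 0.5 and a set of main genes in each comparison. The members and lists were chosen with earlier results of these data known. In data simulated for the mitosis comparison, 91% of 100 genes raised 2-fold and 92% of 100 lowered, among 4596, were past the fold. Of unchanged genes, 13.8% were past it in either direction. Simulated cells followed 1 of 2 fixed profiles with no other variation between cells, and changes smaller than 2-fold were not simulated. Promoters (RefSeq) and 3′ ends (GENCODE) are of build GRCh38. Python 3.11.15, numpy 2.4.6, scipy 1.17.1, pandas 2.3.3 and matplotlib 3.10.9 were used. Alternatives were another draw, 1500 counts per cell, each barcode set, a split at the median and leaving out the deepest cell. The mitosis comparison was also run with HMGB2 and TUBB4B left out of the list. Groups balanced for depth and cells with at most 1 replication count were chosen after seeing the data.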

Additional observations from a re-analysis of the deposited data

How the results depend on the processing

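No paired analysis was possible because the cells form 1 group with no replicate numbers. The mitosis ratio of the summed members was 0.155 with cells split at the median and 0.348 among cells with at most 1 replication count, and 0.202 to 0.249 under the other alternatives. In that comparison HSP90AB1 was at 0.04 and HSPB11 at 0.42 with the split at the median, HSP90AA4P was at 0.32 with 1500 counts per cell, and HSPB1 reversed to 0.144 among cells with at most 1 replication count. The replication ratio was 0.0818 with a split at the median. The mitosis list in chaperone-rich over chaperone-poor cells was 0.552 at 1500 counts per cell, 0.272 with a split at the median and 0.416 with HSP90AB1 and HSPA8 left out of the score. There CPSF3 reversed to -0.404 and PFDN6 to -0.19 with another draw, and HSPA5 to 0.103 with 1500 counts per cell. The summed level was 13741 CPM with rows that join several genes left out. The cause was not tested. The stress core ratio stayed between -0.04 and 0.04 and changed sign. A median of 2106 counts per cell limits what can be said of genes with few counts.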
